A study of Mus musculus with 3 samples.

Results

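Mesothelial cells form the thin serosal sheet that covers the spleen capsule, and Msln, Upk3b, Upk1b, Lrrn4, Gpm6a, Wt1, Krt8 and Krt18 are 8 genes known from that sheet or from simple epithelia in general. They were chosen by name, and each was found through the RefSeq accession of its array probe. All 8 had a probe, 1 each, among 20542 genes with a named probe. Earlier results of the same arrays were known when they were chosen: Msln was picked for its higher level in SiO2-3TF-3C spleen, and Krt8 and Krt18 because hepatocytes share them. Their values on these arrays are therefore a description.

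The study hybridised RNA of female mice to 3 single-colour arrays, 1 per group. The first came from spleens treated with SiO2 (silica) and is the control of the design. The second group had SiO2 plus 3TF-3C, a treatment not spelled out in the labels, and its spleens are called hepatized by the series. The third was normal mouse liver, the positive control. Collection of the spleens was on day 82. Both spleen groups carry the SiO2 treatment, and no spleen without it was analysed here. Neither strain nor age is given in the sources used here. According to the series design 5 samples made up each pool, with the liver not named, so each group is 1 array with no replicate. There is therefore no test between groups and no p-value, and precision is limited by the number of arrays.

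Mesothelium is a flat epithelium of mesodermal origin that secretes a lubricating surface layer and also holds keratins, unlike the fibroblasts beneath it. Mesothelin, the product of Msln, is a surface glycoprotein of mesothelial cells that binds the mucin Muc16. Upk3b and Upk1b encode uroplakins, membrane proteins first known from the bladder lining, and Lrrn4 and Gpm6a encode membrane proteins of mesothelium, the latter also abundant in neurons. Wt1 is a zinc finger transcription factor of mesothelium and kidney podocytes that the embryo needs to form a spleen. Krt8 and Krt18 are the type II and type I keratins that pair into the filaments of simple epithelia, hepatocytes included.

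For each sequence shown here the array values bear on its gene: Krt8, Krt18 and Gpm6a are the genes with a promoter window that passed 2-fold between the spleens. In all, 5 of the 8 genes matched the RefSeq promoter table (GRCm38.p6), with 6 windows. The 250 bases before each start are given 5′ to 3′ on the gene's own strand, in lower case with motif matches in capitals. The Krt8 window is chr15:102004343-102004592 on the minus strand and the Krt18 window chr15:102027966-102028215 on the plus strand. The Gpm6a windows are chr8:54779184-54779433 and chr8:54954478-54954727, both on the plus strand.
Krt8: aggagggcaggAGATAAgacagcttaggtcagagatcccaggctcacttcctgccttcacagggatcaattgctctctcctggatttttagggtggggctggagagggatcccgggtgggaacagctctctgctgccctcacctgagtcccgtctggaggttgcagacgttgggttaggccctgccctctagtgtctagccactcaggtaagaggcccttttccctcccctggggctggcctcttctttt
Krt18: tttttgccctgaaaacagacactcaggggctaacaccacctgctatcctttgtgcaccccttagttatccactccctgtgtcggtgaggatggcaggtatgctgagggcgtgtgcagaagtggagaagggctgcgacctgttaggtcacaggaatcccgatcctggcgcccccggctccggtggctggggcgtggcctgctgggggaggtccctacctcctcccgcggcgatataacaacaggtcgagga
Gpm6a, first start: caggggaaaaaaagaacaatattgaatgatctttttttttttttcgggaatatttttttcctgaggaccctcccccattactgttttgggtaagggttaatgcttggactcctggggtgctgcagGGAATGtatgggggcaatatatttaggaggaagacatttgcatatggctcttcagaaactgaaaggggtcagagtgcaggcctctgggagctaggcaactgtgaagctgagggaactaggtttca
Gpm6a, second start: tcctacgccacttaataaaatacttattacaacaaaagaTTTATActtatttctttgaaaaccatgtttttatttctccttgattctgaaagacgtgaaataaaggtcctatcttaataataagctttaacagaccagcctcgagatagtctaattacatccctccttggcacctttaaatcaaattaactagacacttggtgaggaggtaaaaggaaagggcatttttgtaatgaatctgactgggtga

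The capitals mark matches, on either strand, to 10 short motifs. These were the GATA box AGATAA, the Sp1 GC box GGGCGG, the TATA box TATAAA, the CCAAT box CCAAT, the AP-1 site TGANTCA, the TEAD site GGAATG, the Foxa site TGTTTAC, the Hnf4 site AAAGTCC, the Wt1 core GTGGGAG and the Ets core CCGGAAG. The Krt8 window held the GATA box 239 bases before the start, and the Krt18 window held none of the 10. The TEAD site was in the first Gpm6a window, 125 bases before the start, and also in the windows of Lrrn4 (196 bases) and Upk3b (241 bases, opposite strand). Of 32851 windows of this length in the table, 12.6% held the TEAD site and 9.99% the GATA box. The second Gpm6a window held the TATA box on the opposite strand, 211 bases before its start, as did 12.4% of windows on either strand. The Foxa and Hnf4 letters, in 3.17% and 3.58% of windows, were in no window of these genes, and neither were the other 5 motifs. Those are held by 32.7% (Sp1), 33.8% (CCAAT), 6.75% (AP-1), 8.25% (Wt1) and 6.91% (Ets) of windows. A match is a match of letters and not a site shown to be bound.

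Levels are given as the scanner's processed intensity and as a scaled log2 level, in which the 75th percentile of each array is 0. That percentile was an intensity of 569 for SiO2 spleen, 515 for SiO2-3TF-3C spleen and 389.8 for liver. A gene is called measured on an array where the scanner software marked its probe as well above background. Of the 8 genes, 4 were measured in SiO2 spleen, 5 in SiO2-3TF-3C spleen and 7 in liver. Msln, Gpm6a, Wt1 and Krt18 were measured on all 3 arrays, Upk1b on none, and Upk3b, Lrrn4 and Krt8 on 1 or 2. A value after ± is a technical error computed by the scanner software for the log2 difference, without any spread between animals. Where only 1 side was measured, the difference is a bound, with the dim side taken as its own signal or, if that is lower, the dimmest signal called well above background on its array.

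**Figure D1:**
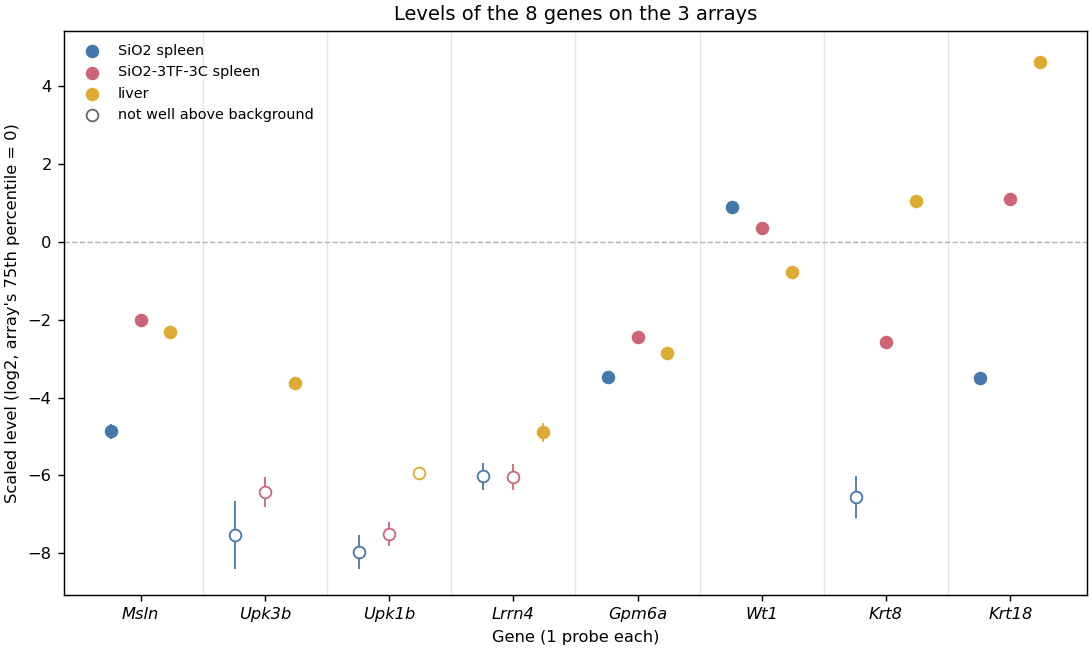
Scaled log2 level (0 = the array's 75th percentile) of the 8 genes on the 3 arrays, 1 point per array and probe, with bars for the technical error and open circles where the probe was not well above background. Krt8 and Krt18 step up from SiO2 spleen to SiO2-3TF-3C spleen to liver, Msln and Gpm6a are highest in SiO2-3TF-3C spleen, and Wt1 steps down.

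The arrays were alike in the share of spots detected: between 77.2% and 81.3% of 43020 spots were well above background, and 0 spots were saturated. Liver had the most spots marked as outliers, 469 against 182 in SiO2 spleen and 283 in SiO2-3TF-3C spleen. Its median standard deviation between replicate spots was 0.099 on the log2 scale, against 0.076 and 0.079. All 37 hepatocyte genes with a probe, out of 38 listed, were at least 2-fold higher in liver and in SiO2-3TF-3C spleen than in SiO2 spleen. All 16 lymphocyte genes and all 11 spleen stroma genes with a probe were well above background on each of the 3 arrays, liver included. In RNA from whole tissue, fewer cells of a type and less RNA per cell cannot be told apart.

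Between the spleen samples the 8 genes did not move together. Of the 5 measured on at least 1 spleen array, Msln, Gpm6a, Krt8 and Krt18 were at least 2-fold higher in SiO2-3TF-3C spleen, 0 were at least 2-fold lower, and Wt1 differed by less than 2-fold. Over all 17635 genes measured in this comparison 5.24% were at least 2-fold higher and 1.39% at least 2-fold lower. The choice of genes used this contrast, so nothing is read from the count. The 5 measured genes had a median log2 difference of 2.86, which is the value of Msln itself, and all genes had -0.15. Msln was chosen on this contrast and Krt8 was measured only where it is high, so the median is a description, and it was 1.20 with normexp and 1.07 with no filter on dim probes. Upk3b, Upk1b and Lrrn4, which mark mesothelium more narrowly than the keratins do, were not well above background on either spleen array and have no fold there.

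The surface protein gene Msln had an intensity of 19.5 in SiO2 spleen, 128 in SiO2-3TF-3C spleen and 78.3 in liver. Its scaled log2 levels were -4.87, -2.01 and -2.31. The SiO2 spleen was thus the low sample, and SiO2-3TF-3C spleen and liver lay near each other. Msln was 7.24-fold higher in SiO2-3TF-3C spleen than in SiO2 spleen, a log2 difference of 2.86 ± 0.24, and 219 of 16777 genes measured on both arrays had a larger one. With normexp background correction, which adds an offset and shrinks differences of dim probes, the log2 difference was 1.36. Liver was 5.87-fold above SiO2 spleen (2.55 ± 0.24), or 1.30 on the log2 scale with normexp. The SiO2-3TF-3C spleen exceeded liver by 0.30 ± 0.21, which is little more than the technical error. In the authors' deposited table the log2 values of Msln were 4.07, 6.89 and 6.58 in the same order.

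Msln was then set beside other genes, as a description, since it was chosen on the same difference. Of 924 genes at least 2-fold higher in SiO2-3TF-3C spleen than in SiO2 spleen, 195 (21.1%) also had a higher scaled level there than in liver, among them Msln. Of those 195 genes, 162 were measured on both spleen arrays, and 1 of them, Rsrc2 at 3.87, had a larger difference between the spleens than Msln. The rest of the 195 were not well above background in SiO2 spleen, so their differences are bounds and were not ranked. Likeness was taken as the distance between the 3 scaled log2 values of genes, each centred on its own mean, over the 3 arrays. It is not scaled for the size of the differences, so genes with large differences have fewer neighbours. Among 16077 other genes measured on all 3 arrays, none lay within 0.25 of Msln. The nearest were Fn3k, a kinase that removes sugars from proteins, at 0.32, and the transcription factor gene Sox6 at 0.71.

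The membrane proteolipid gene Gpm6a had an intensity of 51.2 in SiO2 spleen, 94.3 in SiO2-3TF-3C spleen and 54.2 in liver. On the scaled log2 axis these were -3.47, -2.45 and -2.85, so that SiO2-3TF-3C spleen was the highest of the 3. Gpm6a was 2.03-fold higher in SiO2-3TF-3C spleen than in SiO2 spleen (1.02 ± 0.21), just past the 2-fold rule. It was at 0.65 with normexp, below 2-fold. Liver exceeded SiO2 spleen by 0.63 ± 0.22. The SiO2-3TF-3C spleen exceeded liver by 0.40 ± 0.21. The nearest genes by shape were the histone variant gene H2al1a and the nuclear lamin gene Lmna, both at least 2-fold higher in SiO2-3TF-3C spleen as well, at 1.01 and 1.02, and 47 genes lay within 0.25.

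The transcription factor gene Wt1 ran the other way, with an intensity of 1049 in SiO2 spleen, 659.8 in SiO2-3TF-3C spleen and 229 in liver. Its scaled log2 levels of 0.88, 0.36 and -0.77 fell in the order SiO2 spleen, SiO2-3TF-3C spleen, liver. Between the spleens Wt1 differed by -0.53 ± 0.20, less than 2-fold. It was 3.14-fold lower in liver than in SiO2 spleen (-1.65 ± 0.20) and 2.18-fold higher in SiO2-3TF-3C spleen than in liver (1.12 ± 0.20). With normexp the last value was 0.91, below 2-fold. Its differences from SiO2 spleen were smaller than those of Msln, while SiO2-3TF-3C spleen differed more from liver for Wt1 (1.12) than for Msln (0.30). Of 16077 genes 757 lay within 0.25 of Wt1, nearest among them the forkhead gene Foxd2 at 0.0045 and Cyria at 0.01.

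Spleen and podocyte genes are given beside Wt1, since those tissues share it. Spleen stroma genes had a median of -0.34 between the spleens and -1.25 in liver against SiO2 spleen. Over all genes 1.39% were at least 2-fold lower and 5.24% higher in the first comparison, and 17% were lower in the second. Of the 11 spleen stroma genes 1 was at least 2-fold lower and 0 were higher in the first, and 7 were lower in the second. With normexp 0 were lower in the first, and 4 of 9 were lower in the second in the authors' deposited table. The summed scaled signal of the 11 genes was 20.6 times the 75th percentile in SiO2 spleen, 15.5 in SiO2-3TF-3C spleen and 9.16 in liver. The splenic organ regulators Nkx3-2 and Nkx2-5 differed by -1.32 and -0.42 between the spleens, and Tlx1 by -0.14. Lymphocyte genes had medians of -0.56 and -1.29 in the 2 comparisons, which share the array of SiO2 spleen, and their summed signal was 189, 129 and 74.6 times the 75th percentile. Of 9 podocyte genes 1 was at least 2-fold lower in SiO2-3TF-3C spleen than in SiO2 spleen and 0 were higher (median -0.13). That gene was the cell cycle inhibitor Cdkn1c at -1.65. The part of these lists in the Wt1 values was not tested.

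The uroplakin genes and Lrrn4 were dim in spleen. Upk3b had an intensity of 3.07 in SiO2 spleen, 6.02 in SiO2-3TF-3C spleen and 31.5 in liver, and was well above background in liver alone. Liver exceeded SiO2 spleen by at least 5.33-fold and SiO2-3TF-3C spleen by at least 5.92-fold. Lrrn4 had intensities of 8.73, 7.80 and 13.1 and was likewise measured only in liver, at least 2.19-fold above SiO2 spleen and at least 2.22-fold above SiO2-3TF-3C spleen. Those Lrrn4 values lie next to the limit, since the dimmest probes called well above background had intensities of 8.63, 7.04 and 8.20 on the 3 arrays. With normexp the Lrrn4 bounds were 0.60 and -0.47 on the log2 scale, below 2-fold, and those of Upk3b were 1.03 and -0.89.

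Upk1b was printed as 10 spots of 1 probe and gives the only view of spot-to-spot spread among these genes. Its mean intensity was 2.27, 2.83 and 6.32 over the 9, 8 and 10 spots used, in the order SiO2 spleen, SiO2-3TF-3C spleen, liver. The standard deviation between spots was 0.51, 0.43 and 0.50 on the log2 scale. Only 1, 0 and 1 of the 10 spots were well above background, so Upk1b is not well above background on any of the 3 arrays and has no fold. The other uroplakins were not at the same level of detection: Upk1a, Upk2 and Upk3a were measured on all 3 arrays and Upk3bl on none. Upk1a was 18.9-fold higher in liver than in SiO2 spleen (4.24) and differed by 0.60 between the spleens, while Upk2 and Upk3a were at -0.66 and -0.47 there. In the bladder lining list, which shares Upk1a, Upk2 and Upk3a, 0 of 9 genes were at least 2-fold apart between the spleens (median -0.25). The shares over all genes were 5.24% higher and 1.39% lower.

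The keratin pair was far higher in SiO2-3TF-3C spleen and higher still in liver. The type I keratin gene Krt18 had an intensity of 50.1 in SiO2 spleen, 1101 in SiO2-3TF-3C spleen and 9508 in liver. Its scaled log2 levels were -3.51, 1.10 and 4.61, each sample well apart from the next. Krt18 was 24.3-fold higher in SiO2-3TF-3C spleen than in SiO2 spleen (4.60 ± 0.21) and 277-fold higher in liver (8.11 ± 0.21). With normexp these log2 differences were 3.64 and 6.86. Its partner Krt8, the type II keratin gene, had intensities of 6.04, 86.2 and 805 and was not well above background in SiO2 spleen. Krt8 was therefore at least 11.04-fold higher in SiO2-3TF-3C spleen than in SiO2 spleen, and liver exceeded SiO2 spleen by at least 136-fold. With normexp the log2 bounds were 1.20 between the spleens and 4.11 for liver. The SiO2-3TF-3C spleen lay below liver by nearly the same amount for both, at -3.51 ± 0.20 for Krt18 and -3.62 ± 0.21 for Krt8. Those values differ from each other by less than either technical error. In the authors' deposited table, the log2 values of Krt18 were 5.42, 10.08 and 13.33.

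Between the spleens Krt8 and Krt18 were the 2 keratin genes that passed 2-fold. Of 47 genes with a keratin symbol, a list made after the values were seen, 33 were measured in this comparison. Both were higher in SiO2-3TF-3C spleen, 0 keratins were at least 2-fold lower and 31 did not pass 2-fold either way (median -0.19). The shares over all genes were 5.24% higher and 1.39% lower. Of the 33 values 5 are bounds, Krt8 and Krt19 among them, so the true difference may be larger. With no filter on dim probes 5 of 47 were higher and 3 lower. Krt19, a keratin of bile ducts, was at least 1.63-fold up and the duct and mesothelial keratin Krt7 was at 0.02 ± 0.33. Both were dim in SiO2 spleen and SiO2-3TF-3C spleen, with intensities of 6.64 and 12.7 for Krt19 and 15.4 and 14.1 for Krt7. The dimmest probes called well above background had 8.63 and 7.04 on those arrays. In liver against SiO2 spleen 8 of 31 keratins were at least 2-fold higher and 2 lower (4 and 1 of 30 with normexp), with Krt19 at least 3.09-fold higher and Krt20, a keratin of gut lining, at -1.55. Over all genes 15.4% were higher and 17% lower there. By shape over the 3 arrays the genes nearest to Krt18 were Itih2, a plasma protein of hepatocytes, at 0.05, and the glutathione transferase gene Gstm6 at 0.06, and 8 genes lay within 0.25.

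**Figure D2:**
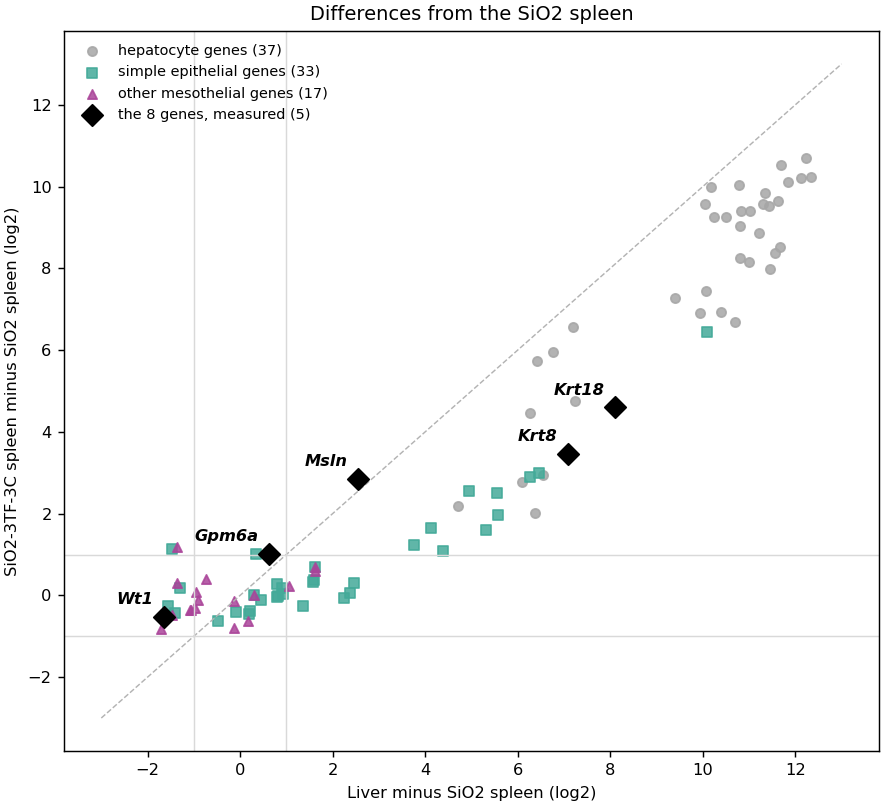
Each gene's log2 difference from SiO2 spleen, liver on the horizontal axis and SiO2-3TF-3C spleen on the vertical axis; both axes share the array of SiO2 spleen, the dashed line marks equal differences, grey lines mark 2-fold, and bounds are plotted at their value. Msln (2.55, 2.86) lies just above the line, Krt18 (8.11, 4.60) and Krt8 lie below it near simple epithelial and hepatocyte genes, and other mesothelial genes lie near 0 on the vertical axis (median -0.12) and mostly below it on the horizontal one (median -0.92).

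Most other mesothelial genes did not pass 2-fold between the spleens. Of 23 listed, 22 had a probe and 17 were measured, of which 1 was at least 2-fold higher, 0 were lower and 16 did not pass 2-fold (median log2 difference -0.12). The shares over all genes were 5.24% higher and 1.39% lower. Among the 16, Krt19 is a bound of at least 1.63-fold. With no filter on dim probes 2 of 22 were at least 2-fold higher. The 1 gene was Slpi, a secreted protease inhibitor that epithelia and leukocytes also make, at 1.19 ± 0.20. With normexp it fell below 2-fold and 0 remained. Rspo1 was at -0.12, Aldh1a2, the retinoic acid enzyme of mesothelium, at -0.31, Pdpn at 0.08 and Lrrn4cl at -0.82. The mesothelial genes Calb2, Bnc1, Tbx18, Isl1 and Mslnl were not well above background on any of the 3 arrays. Muc16, the partner of mesothelin, had no probe matched by name. In liver against SiO2 spleen 3 of 17 were at least 2-fold higher and 6 lower (median -0.92), or 1 and 3 with normexp. Over all 17354 genes measured there 15.4% were at least 2-fold higher and 17% at least 2-fold lower.

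In that comparison 5 of the 7 measured genes among Msln, Upk3b, Lrrn4, Gpm6a, Wt1, Krt8 and Krt18 had a liver level at least 2-fold above that of SiO2 spleen and 1, Wt1, was lower. Gpm6a differed by less than 2-fold. Of the 5, 3 are bounds (Upk3b, Lrrn4 and Krt8), counted as measured because liver was high. The median was 2.41, which is the bound of Upk3b, against -0.14 over all genes, so it is a description. Between SiO2-3TF-3C spleen and liver 1 of 7, again Wt1, was at least 2-fold higher in the spleen and 4 were lower: Upk3b, Lrrn4, Krt8 and Krt18. Over all 17208 genes measured in that comparison, 10.7% were at least 2-fold higher in SiO2-3TF-3C spleen and 15.9% at least 2-fold lower. Of the 4 lower genes, Upk3b and Lrrn4 are bounds. The median of the 7 was -1.15, which is the bound of Lrrn4 next to the limit of detection, against -0.03 over all genes.

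Genes that join simple epithelial cells to each other were higher in SiO2-3TF-3C spleen in part. Of 37 listed junction, keratin and epithelial regulator genes 33 were measured between the spleens. Of these 12 were up by at least 2-fold, 0 were down and 21 did not pass it, Krt19 among them as a bound (median 0.29). Over all genes 5.24% were up and 1.39% down. Of the 12, 5 are bounds, dim in SiO2 spleen and counted as measured because SiO2-3TF-3C spleen was high. With normexp 4 were up. The tight junction gene Cldn3 was at least 87.0-fold higher, Cldn1 at least 7.40-fold and Ocln at least 5.89-fold. The desmosome gene Pkp2, which anchors keratin filaments at the membrane, was at least 7.97-fold higher, and the tight junction gene Cgn differed by 2.50 ± 0.21. E-cadherin (Cdh1) differed by 1.65 and Dsp, the desmosomal protein that binds keratin filaments, by 1.09. In liver against SiO2 spleen 19 of 35 were at least 2-fold higher and 4 lower (0 with normexp), with a median of 1.57. Of the 19, 8 are bounds, and over all genes 15.4% were higher and 17% lower.

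Some epithelial genes were higher in SiO2-3TF-3C spleen than in liver, as Msln was by little more than its technical error (0.30 ± 0.21). Epcam, an adhesion protein of bile ducts and many epithelia but not of adult hepatocytes, differed by 1.13 ± 0.21 between the spleens and by -1.47 ± 0.26 in liver against SiO2 spleen. Its scaled log2 levels were -2.93, -1.80 and -4.40. Among 12 biliary genes 11 were measured between the spleens, and Epcam, Tspan8 at 1.95 and Spp1 at 1.43 were the 3 at least 2-fold higher (median 0.52). The share over all genes was 5.24%. The summed signal of the biliary list was 9.32 times the 75th percentile in SiO2 spleen, 9.19 in SiO2-3TF-3C spleen and 12.9 in liver. Cldn7 lay just past the 2-fold limit between the spleens and was at 0.34 in liver against SiO2 spleen.

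**Figure D3:**
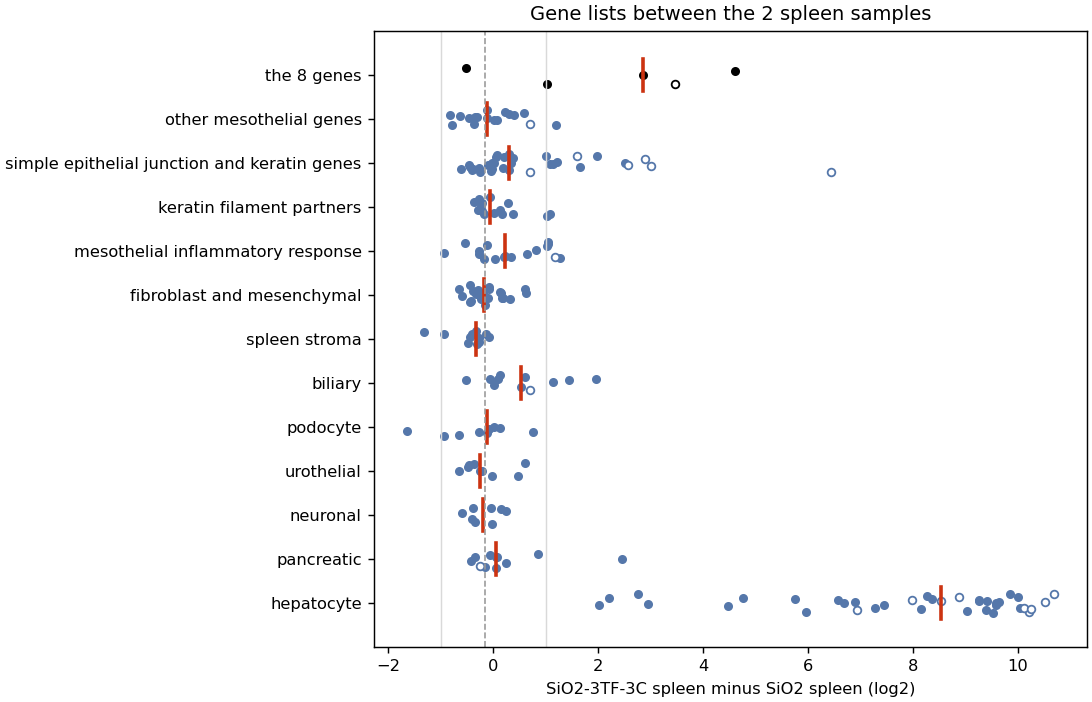
Log2 difference between the SiO2-3TF-3C and SiO2 spleens for each measured gene of 13 lists, 1 point per gene (open where the value is a bound), with the list median in red, the median over all genes (-0.15) dashed and grey lines at 2-fold. Hepatocyte genes have a median of 8.53, simple epithelial genes spread upward from a median of 0.29, and other mesothelial genes centre on -0.12.

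Hepatocyte genes, which accompany Krt8 and Krt18, had a median difference of 8.53 between the spleens, with 37 of 37 at least 2-fold higher. With normexp the median was 6.12. Their summed signal was 7.41 times the 75th percentile in SiO2 spleen, 740 in SiO2-3TF-3C spleen and 2113 in liver, and 28, 37 and 37 of 37 were well above background. Albumin (Alb) was 1021-fold higher, and the hepatocyte transcription factor gene Hnf4a differed by 8.37 on the log2 scale. The part of hepatocytes in the keratin values was not tested.

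The scaled signal of SiO2-3TF-3C spleen was then expressed as a percent of that in liver. It was 8.11% for Krt8 and 8.77% for Krt18. The 37 hepatocyte genes ranged from 4.85% to 87.9% with a median of 26.6%, and 2 of them were at or below Krt8 and 3 at or below Krt18. The 33 simple epithelial genes had a median of 52.7% and ranged from 7.62% to 605%, with 5 over 100%, Epcam the highest. At the low end of that list, near the keratins, were Cldn2 at 7.62%, Cldn3 at 7.98%, the splicing regulator Esrp2 at 8.23%, Pkp2 at 9.10%, Cldn1 at 9.61% and Dsp at 10.1%. The bladder gene Upk1a stood at 8.01%. By the same measure Msln was at 123%, Gpm6a at 132% and Wt1 at 218%. Of 16417 genes measured on both arrays, 5575 stood higher than Msln, 4940 higher than Gpm6a and 1317 higher than Wt1. The 37 hepatocyte genes were listed as genes of liver cells, so nothing is read from the 0 of them over 100%. Other mesothelial genes had a median of 161%, with 11 of 17 over 100%. The median over all genes was -0.03 on the log2 scale, which is close to 100%. Nothing is therefore read from the counts over 100% in either list.

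**Figure D4:**
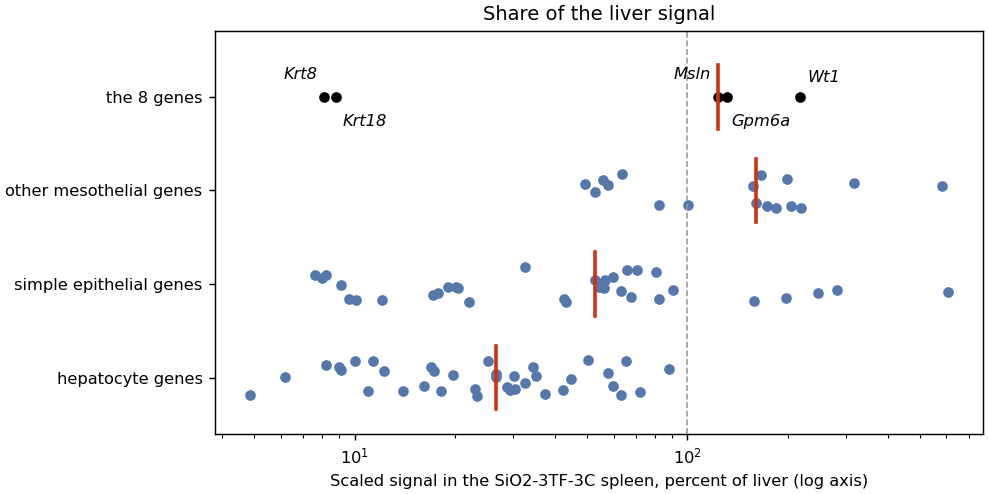
Scaled signal in SiO2-3TF-3C spleen as a percent of that in liver, on a log axis, for genes well above background in both, 1 point per gene with the list median in red and 100% dashed. Krt8 and Krt18 sit at 8.11% and 8.77%, inside the hepatocyte range of 4.85% to 87.9% and below its median of 26.6%. Most hepatocyte genes were brighter in liver than the keratins. Msln, Gpm6a and Wt1 lie above 100%.

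Genes of proteins that bind or neighbour keratin filaments mostly stayed within 2-fold between the spleens: 2 of 15 were at least 2-fold higher and 0 lower (median -0.06), Dsp and the lamin gene Lmna, while vimentin (Vim), the filament of mesenchymal cells, was at -0.28. Fibroblast and mesenchymal genes had 0 of 22 at least 2-fold apart (median -0.17), with Col1a1, the main fibrillar collagen gene, at -0.08. Over all genes measured between the spleens 5.24% were at least 2-fold higher and 1.39% lower, the shares to set beside each count here. Genes that irritated mesothelium is known to make were higher for 5 of 17 and lower for 0 (median 0.23). With normexp, which also lowered the count over all genes, 1 of 17 was higher. The 5 were the iron-binding Lcn2 at 1.27, the chemokine Ccl2 at 1.05, the acute phase gene Saa3 at 1.04, the protease inhibitor Timp1 at 1.02 and the growth factor Areg, at least 2.26-fold higher. Many cell types make each of them, macrophages and hepatocytes included.

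Of 8 measured neuronal genes, which could accompany Gpm6a, 0 were at least 2-fold apart between the spleens (median -0.20). For this and the counts below, 5.24% of all genes were at least 2-fold higher and 1.39% lower. Among the relatives of Gpm6a and Lrrn4, 1 of 7 passed 2-fold, Gpm6a itself, and Gpm6b was at -0.49. Of 8 ovary and oviduct genes, a tissue that holds Wt1, Msln and Upk1b, 1 was at least 2-fold higher (median -0.14), the activin subunit gene Inhba at 1.74, which was also at 3.57 in liver. Of 11 pancreatic genes 1 was higher (median 0.04), the amylase gene Amy2a5 at 2.46, and of 11 intestinal and gastric genes 1 (median -0.22), the fatty acid carrier gene Fabp2 at 3.08. Amy2a5 and Fabp2 were at 4.34 and 6.37 for liver minus SiO2 spleen. Skeletal muscle genes were down by at least 2-fold for 3 of 9 (median -0.44), with the myosin light chain gene Myl1 at -1.85. Of 9 adipocyte genes 2 were higher (median -0.13), Car3 at 6.61 and the glucose carrier gene Slc2a4 at 2.14. For liver minus SiO2 spleen Car3 was at 10.1 and Slc2a4 at -1.27. The part of these tissues in the values of Msln, Gpm6a and the keratins was not tested.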

How the data were processed

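RNA of 3 samples was hybridised to Agilent arrays (design 026655) with 1 dye. The deposited scanner files hold linear intensity after background subtraction and detrending, extracted with Feature Extraction 11.0.1.1 per the file headers, while the submitters' processing notes name version 9.1. Per the labels' protocols, the RNA kit is written for blood and globin messages were depleted. The authors' deposited series table holds log2 values of 26049 probes, with 5 of the 8 genes. How it was normalized is not stated in the sources used here. Each of its columns correlated best with its own array (r from 0.993 to 0.996), its medians were 5.91 in each column, and the columns are not centred.

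Control spots and spots marked as outliers (182, 283 and 469) were left out, spots of a probe averaged, and log2 intensities scaled to each array's 75th percentile over 39112 probes. Probes were named through RefSeq accessions (27032 probes, 69.1%), and a gene is its brightest probe. With 1 array per group, genes were described by a 2-fold rule, without a test, in 3 comparisons. The code was tested on simulated data. The scanner files used here lack the mean signal, so normexp (limma 3.58.1, offset 50) ran on the median signal. Genes named from a list are the 5 with the largest differences between the spleens and a set of anchors, and per gene the 2 nearest in shape; other list members were named after their values were seen. The 8 genes and the 20 lists were chosen with earlier results of these data known.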

Additional observations from a re-analysis of the deposited data

How the results depend on the processing

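Each value was recomputed under 7 alternatives. Of 125 values of single genes among the 8, 106 moved by less than their technical error, 19 moved further and 0 of those past 2-fold changed sign. Normexp background correction moved most of them (16 of 19 values). Under it the median of the 8 genes, over those measured, was 1.20 between the spleens, 1.03 for liver minus SiO2 spleen and -0.47 for SiO2-3TF-3C spleen minus liver. In the last comparison 0 of the 8 were then at least 2-fold higher and 2 lower. It put the share of the liver signal at 104% for Msln, 13.3% for Krt8, 10.8% for Krt18, 110% for Gpm6a and 188% for Wt1. With no filter on dim probes the median between the spleens was 1.07. The authors' deposited values hold 5 of the 8 genes: Msln, Upk1b, Lrrn4, Gpm6a and Krt18. They gave 2 at least 2-fold higher and 0 lower in liver than in SiO2 spleen (median 1.74), and 0 higher and 1 lower in SiO2-3TF-3C spleen than in liver (median -0.32). Wt1, the gene behind both of these counts in the main processing, is not among them, so the values of 0 could not include it. The share of the liver signal was 10.6% for Krt18 and 36.7% for the hepatocyte median in those values, and 10.3% and 33.7% with quantile normalization. Over all genes, those at least 2-fold higher in SiO2-3TF-3C spleen numbered 592 with normexp against 924, and those lower numbered 40 with normexp, 156 in the deposited values and 555 with no filter against 245. For liver minus SiO2 spleen the higher genes numbered 1767 in the deposited values against 2668 and the lower ones 1633 with normexp against 2946. For SiO2-3TF-3C spleen minus liver the higher genes numbered 861 with normexp against 1847, and the lower ones 1697 in the deposited values against 2728. Quantile normalization gave 2322 higher and 2380 lower there, and -0.10 for the median over all genes between the spleens. The median over all genes of liver minus SiO2 spleen was 0.07 with normexp and -0.22 in the deposited values, against -0.14. No paired analysis was possible because each group has 1 array. Signal over background limits Upk1b, Upk3b, Lrrn4 and, in SiO2 spleen, Krt8.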
